A study of Mus musculus with 4 samples.

Results

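The 10 genes that mark fibroblasts and mural cells and were examined here in sorted lung endothelium were Pdgfra, Tcf21, Tbx4, Col1a1 and Col1a2 for fibroblasts and lung mesenchyme, and Pdgfrb, Cspg4, Rgs5, Acta2 and Myh11 for pericytes and smooth muscle cells. They were chosen by name, as 10 of 21887 protein-coding genes, and a peak counted as theirs when it touched the gene span or the 10 kb on either side. The measurements were ATAC-seq peak lists, in which a transposase marks open chromatin, from endothelial cells sorted out of mouse lung: 2 libraries labelled ko, the Dnmt3a knockout (KO), and 2 labelled wt, the wild type (WT). The sample titles name the gene as d3a, and the series title gives DNMT3A. The allele, the Cre driver, the strain and the age of the mice are not given in the sources used here. The labels do not tie the libraries to single mice, so any p-value measures only the spread between these libraries. The lists held 85091 to 101442 peaks on chromosomes 1 to 19, X and Y, with positions on mm10 and no score or read count, so the read depth was unknown. The lists cannot check the deletion itself: the Dnmt3a window had peaks over 9791 and 11579 bp in KO and 10974 and 10579 bp in WT. A locus is called open here only in the sense that a peak was listed, and the lack of a peak does not show closed chromatin. KO replicate 1 had the shortest list, and KO replicate 2 differed from the other 3 libraries in having peaks at 0 of 5 single-copy Y genes, against 3 or 4 of 5. KO replicate 2 also had 3 peaks over Xist and the 2500 bp past its high-coordinate end, against 1 in each other library. The KO libraries may therefore differ in sex, which no comparison here took into account.

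Fibroblasts and mural cells surround the endothelium of the lung. Endothelial cells secrete PDGF-B, which binds the receptor encoded by Pdgfrb on pericytes and draws them to the vessel wall, while the receptor encoded by Pdgfra responds mainly to PDGF-A from the epithelium. These genes are used as markers of cells that a sort for endothelium is meant to leave out, and Dnmt3a encodes a DNA methyltransferase that places methyl groups on CpG sites. The gates of the sort are not given in the sources used here. A weak peak at such a gene in all endothelial cells and a strong one in a few other cells cannot be told apart in these bulk lists.

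The promoters show how differently these loci stood in the same libraries. RefSeq (GRCm38.p6, the mm10 assembly) gave a start with strand for 7 of the 10 genes. The 250 bases before the start are printed 5′ to 3′ for 5 of these, chosen to run from a peak in all 4 lists (Rgs5 and Cspg4) through 3 lists (Tbx4) and 2 lists (Col1a2) to none (Acta2), with every CpG in capitals. They lie at chr1:169655251-169655500 (Rgs5, plus strand), chr9:56864854-56865103 (Cspg4, plus strand), chr11:85896515-85896764 (Tbx4, plus strand), chr6:4505368-4505617 (Col1a2, plus strand) and chr19:34255374-34255623 (Acta2, minus strand).
Rgs5: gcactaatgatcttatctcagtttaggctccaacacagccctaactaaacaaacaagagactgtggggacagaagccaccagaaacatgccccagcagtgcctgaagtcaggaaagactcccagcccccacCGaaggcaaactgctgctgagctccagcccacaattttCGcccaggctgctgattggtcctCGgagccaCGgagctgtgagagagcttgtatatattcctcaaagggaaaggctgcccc
Cspg4: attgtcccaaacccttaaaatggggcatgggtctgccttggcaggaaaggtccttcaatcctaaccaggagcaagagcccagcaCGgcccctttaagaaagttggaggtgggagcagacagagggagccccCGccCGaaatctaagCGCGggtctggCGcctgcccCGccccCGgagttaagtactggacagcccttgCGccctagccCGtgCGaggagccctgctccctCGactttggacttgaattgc
Tbx4: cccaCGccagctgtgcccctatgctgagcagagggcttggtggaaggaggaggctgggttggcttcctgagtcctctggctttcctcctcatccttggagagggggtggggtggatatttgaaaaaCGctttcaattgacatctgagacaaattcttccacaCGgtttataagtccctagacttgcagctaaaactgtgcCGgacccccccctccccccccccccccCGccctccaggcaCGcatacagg
Col1a2: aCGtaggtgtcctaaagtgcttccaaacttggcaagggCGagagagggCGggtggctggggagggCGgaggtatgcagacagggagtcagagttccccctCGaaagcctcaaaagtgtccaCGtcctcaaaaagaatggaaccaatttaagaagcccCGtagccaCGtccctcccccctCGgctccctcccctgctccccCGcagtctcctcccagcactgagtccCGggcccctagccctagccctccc
Acta2: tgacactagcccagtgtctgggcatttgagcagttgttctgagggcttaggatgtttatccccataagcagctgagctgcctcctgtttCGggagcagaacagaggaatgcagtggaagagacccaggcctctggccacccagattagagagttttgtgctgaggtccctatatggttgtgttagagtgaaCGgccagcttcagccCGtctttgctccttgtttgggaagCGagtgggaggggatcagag
The CpG count did not order them by openness. Rgs5 and Acta2 each held 4 CpGs, yet peaks covered all 250 bases of the Rgs5 promoter in every library and 0 bases of the Acta2 promoter in every library. Cspg4 held 12 CpGs and was covered over 174 bases in KO replicate 1 and over all 250 in the other libraries. Tbx4 held 6 CpGs, with 209, 173 and 168 bases covered in KO replicate 2, WT replicate 1 and WT replicate 2 and 0 in KO replicate 1. Col1a2 held 11 CpGs, and its promoter had 20 bases covered in KO replicate 1 and 118 in WT replicate 1, with 0 in the other libraries. The promoters not printed, of Pdgfra (4 CpGs) and Tcf21 (5 CpGs), had 0 bases covered in every library. Over the 21263 promoter entries of protein-coding genes, the median was 17 CpGs where all 4 lists had a peak and 2 where none did.

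Short sequence motifs were counted in the same 250 bases on both strands. GGAA, the core bound by ETS factors that endothelial cells express, occurred in all 7 promoters, from 1 match in Cspg4 to 7 in Tcf21, and in 93.4% of all 32851 promoter entries. The E-box CANNTG, bound by basic helix-loop-helix factors such as TCF21, occurred in Acta2 (3 matches), Tbx4 (3 matches) and Pdgfra (1 match), and in 66.2% of all entries. TATAAA was found in Tbx4 alone among the 7, against 12.4% of all entries. The AP-1 motif TGANTCA was found in 0 of the 7 (6.75% of all entries). The CArG box of serum response factor, CCWWWWWWGG with W for A or T, was also found in 0 of the 7 (1.47%). Only exact matches counted, and in Acta2 ccctatatgg and ccttgtttgg each depart from these letters in 1 base. Each motif was counted separately, and matches of different motifs could share bases. A match of letters is not a binding site, and no match says only that these letters were not in this window.

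Open regions were found at every one of the 10 genes in every library, and none was found in both libraries of 1 genotype while missing from both of the other. Peaks of the 4 lists that overlapped were joined into merged regions, which gave 58 regions in the 10 windows, of which 40 touched the gene itself. Of the 58, 39 (67.2%) were called in all 4 lists, against 66.7% of all 113056 merged regions. Another 6 were called in 3 lists, 7 in 2 lists and 6 in 1 list. Regions shared by the 2 KO libraries and missing from the 2 WT libraries (KO-only) numbered 0, against 1.12% of all merged regions. The reverse (WT-only) also numbered 0, against 3.04%. At those shares, 58 regions are too few for a count of 0 to set these genes apart. It follows from these zeros that all 7 regions of 2 lists combined 1 KO and 1 WT library. Over all merged regions, 5331 of the 10032 regions of 2 lists did. With 1 library left out the rule is looser, and it was met by more regions everywhere. Without KO replicate 1 there were 2 KO-only regions among 59 (at Pdgfrb and Tbx4), against 5.83% of all regions. Without KO replicate 2 there were 4 WT-only regions among 56 (at Pdgfra, Col1a2, Tcf21 and Tbx4), against 11.1% of all. Without WT replicate 1 there were 2 KO-only regions among 57, both at Col1a2, against 2.14% of all, and 2 WT-only regions, at Tcf21 and Myh11, against 5.9%. Without WT replicate 2 there were 2 WT-only regions among 56 (at Pdgfrb and Cspg4), against 7.65% of all. With 2 to 4 regions each, these counts are too few to set the genes apart from the other regions.

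**Figure D1:**
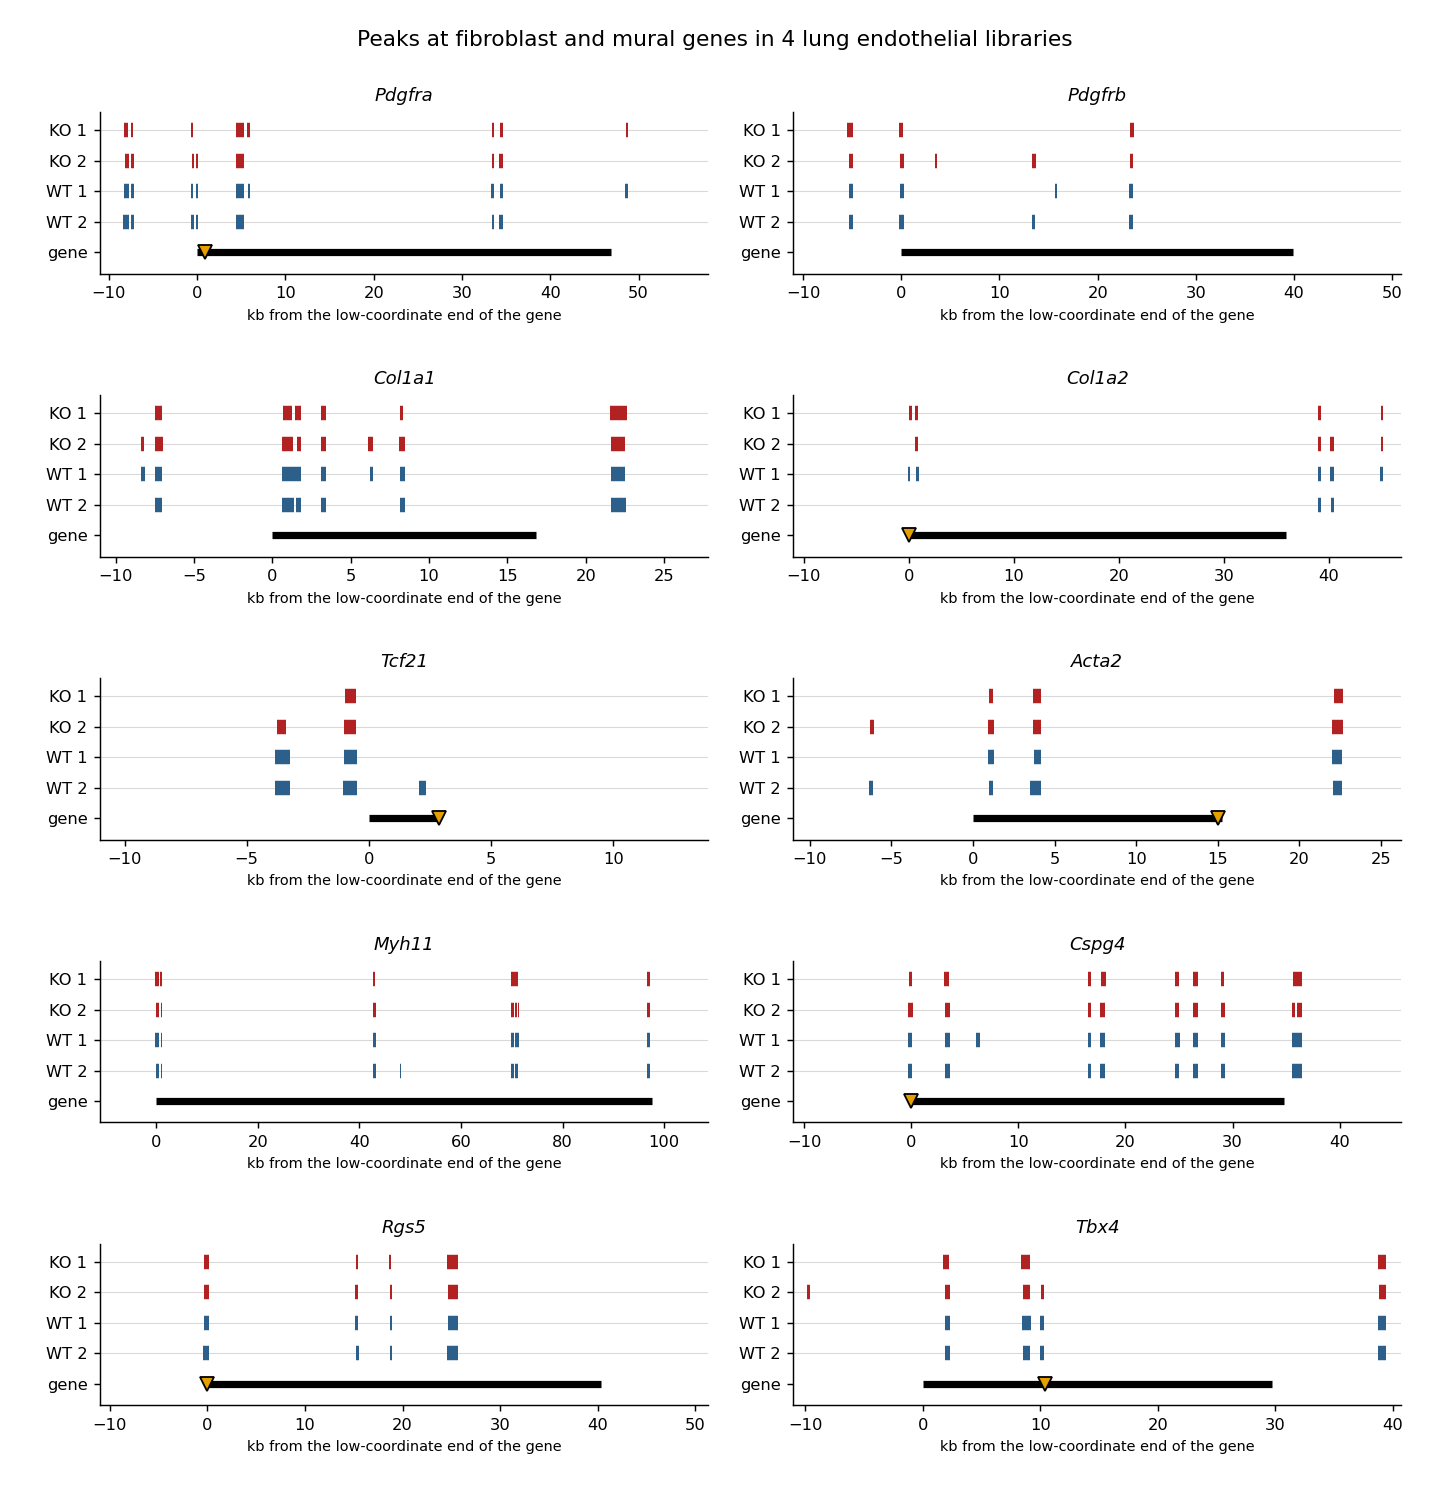
Peaks in each library along the 10 gene windows, with distance in kb from the low-coordinate end of the gene on the horizontal axis: red bars are peaks of the 2 KO libraries, blue bars peaks of the 2 WT libraries, black bars the gene spans, and triangles the starts listed by RefSeq for 7 genes. The same positions recur in the 4 rows of each panel for the 39 regions called in all lists, and no position is filled in both red rows and empty in both blue rows, or the reverse.

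Among the fibroblast genes, Pdgfra (gene identifier 18595, chromosome 5, 75151322 to 75198206) had the most regions, 9. Its widest peak lay inside the gene, in the region at 75155693 to 75156645, and measured 908 and 919 bp in KO and 937 and 923 bp in WT. The WT peaks were wider by a small margin before scaling. In the width comparison given below, the log2 difference there was -0.0016. RefSeq lists the start 929 bp inside the span, and no peak covered it in any library. The nearest peaks were 831, 846 and 878 bp away in KO replicate 2, WT replicate 1 and WT replicate 2, over the low-coordinate end of the span, and 1386 bp away in KO replicate 1. Regions at 75156941 to 75157313 and 75199811 to 75200145 were called in the first replicate of each genotype and in neither second replicate.

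Tcf21 (21412, chromosome 10, 22817263 to 22820143) encodes a basic helix-loop-helix factor of lung mesenchyme and lipofibroblasts. It is the smallest of these genes and had 3 regions. The region at 22816189 to 22816788, 475 bp past the gene's end, had peaks of 478 and 488 bp in KO and 530 and 598 bp in WT. In the width comparison given below, its log2 difference was -0.15 (SE 0.11, limma adjusted p = 0.948). The region at 22813419 to 22814030 had no peak in KO replicate 1, a peak of 336 bp in KO replicate 2, and peaks of 598 and 612 bp in WT. A peak of 290 bp at 22819307 to 22819596, 547 bp from the listed start, was called in WT replicate 2 alone. The base pairs covered in the window were 478 and 824 in KO and 1128 and 1500 in WT, with no overlap between the genotypes. Both WT values lay above both KO values at 34.6% of all gene windows with a peak.

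Tbx4 (21387, chromosome 11, 85886367 to 85916097) encodes a T-box factor of the lung mesenchyme. Its listed start lies 10398 bp inside the span. Peaks 42, 78 and 83 bp from that start were called in KO replicate 2, WT replicate 1 and WT replicate 2, with widths of 303, 294 and 300 bp, and KO replicate 1 had its nearest peak 1250 bp away. The next region, at 85894712 to 85895567, was called in all lists at 804 and 655 bp in KO and 714 and 647 bp in WT. The genotypes overlapped there. A region at 85876493 to 85876797, near the window's edge, was called in KO replicate 2 alone.

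Col1a1 and Col1a2 encode the chains of type I collagen, and their windows stood at opposite ends of the range. Col1a1 (12842, chromosome 11, 94936224 to 94953042) had peaks over 7.91% and 9.70% of its window in KO and 10.1% and 8.58% in WT, the highest mean of the 10 genes. Its region at 94936818 to 94938071, 594 to 679 bp inside the low-coordinate end, was 1 unbroken peak of 1252 bp in WT replicate 1. KO replicate 1, KO replicate 2 and WT replicate 2 each split it into 2 peaks, the larger measuring 587, 709 and 764 bp. A region outside the gene, at 94957777 to 94958833, was 1057 and 952 bp wide in KO and 914 and 928 bp in WT.

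Col1a2 (12843, chromosome 6, 4505618 to 4541543) had the lowest mean coverage of the 10, with 2.15% and 2.19% of its window in KO and 2.30% and 1.08% in WT. WT replicate 2 was the low library. Its start was covered in KO replicate 1 (334 bp) and WT replicate 1 (239 bp), and a second region 557 bp inside the gene in KO replicate 1, KO replicate 2 and WT replicate 1 (362, 269 and 215 bp). WT replicate 2 had neither, and its nearest peak lay 21363 bp from the start. Of 5 regions, 1 was called in all lists, at 4544595 to 4544921, 3052 bp beyond the gene (305 and 318 bp in KO, 310 and 325 bp in WT).

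Among the mural genes, Rgs5 (19737, chromosome 1, 169655501 to 169695813) was the only one of the 10 genes with every region in all lists. It encodes a regulator of G protein signalling that marks pericytes. These regions numbered 4. The peak over the start, at 169655094 to 169655689, measured 565 and 496 bp in KO and 467 and 596 bp in WT. The widest, 24567 bp inside the gene at 169680068 to 169681197, measured 1116 and 951 bp in KO and 971 and 1129 bp in WT. In both, the values of KO and WT overlapped.

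Cspg4 (121021, chromosome 9, 56865104 to 56899870) encodes the NG2 proteoglycan of pericytes. It had 9 regions, of which 8 were called in all lists, including the start (274 and 408 bp in KO, 390 and 324 bp in WT). The region 745 bp beyond the gene, at 56900615 to 56901623, had its widest peak at 780 and 528 bp in KO and 982 and 1009 bp in WT. KO replicate 2 had 2 peaks in that region. The base pairs covered in the window were 3339 and 3681 in KO and 4143 and 3835 in WT, again with no overlap. As at Tcf21, both WT values were the higher, an order seen at 34.6% of all gene windows with a peak.

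Pdgfrb (18596, chromosome 18, 61045127 to 61085067) had 6 regions, of which 3 were called in all lists. A peak lay over the low-coordinate end of the gene in every library, with widths of 398 and 410 bp in KO and 439 and 501 bp in WT. Another region of all 4 lists, 377 and 334 bp wide in KO and 392 bp in both WT libraries, lay 23231 bp inside the gene. The third lay within the span of the neighbouring predicted gene Gm52351, and the window also reached Cdx1. The remaining 3 regions, all inside the gene, were called in 1 or 2 lists.

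Acta2 (11475, chromosome 19, 34240336 to 34255585) encodes alpha smooth muscle actin, and it was the only gene of the 10 with no peak within 1000 bp of its start in any library. The nearest peaks lay 7063 and 6960 bp from the start in KO and 6990 and 7011 bp in WT, all in the region at 34262333 to 34263023 outside the gene. Inside the gene 2 regions were called in all lists, toward the end of transcription: at 34241279 to 34241657 (278 and 336 bp in KO, 379 and 272 bp in WT) and at 34243847 to 34244531 (542 and 485 bp in KO, 416 and 644 bp in WT). The remaining region lay in the neighbouring gene Stambpl1, in KO replicate 2 and WT replicate 2.

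Myh11 (17880, chromosome 16, 14194527 to 14292188) encodes the smooth muscle myosin heavy chain. It had a peak at or near each end of the gene in all lists. Peaks over the low-coordinate end measured 895 and 637 bp in KO and 702 and 645 bp in WT. Those 484 to 504 bp inside the high-coordinate end measured 589 and 521 bp in KO and 586 and 566 bp in WT. At 14264399 to 14265884 KO replicate 1 had a single peak of 1285 bp where KO replicate 2 had 3 peaks and each WT library 2. The spans of Nde1 and Cep20 reached into the Myh11 window, as Sgca did for Col1a1 and Odf3l1 for Cspg4, and 0 member regions lay in these 4 spans.

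Gene starts were then compared with those of other cell types, to see which lineage loci were open at all. A start counted as open with a peak within 1000 bp, and where RefSeq gave no strand here (Pdgfrb, Col1a1 and Myh11 among the 10) a peak near either gene end was enough. All 4 lists had such a peak for 5 of the 10 genes, Pdgfrb, Col1a1, Myh11, Cspg4 and Rgs5, against 62.4% of all protein-coding genes. Pdgfra, Col1a2 and Tbx4 had it in 3 lists, Tcf21 in 1 and Acta2 in none, which was the state of 33.3% of all genes. Of the 7 genes with a listed start, 2 had a peak in all lists, against 62.4% of all genes with a listed start. Of the 3 judged by either end, 3 did, against 62.3% of all genes so judged. By library, 6 and 8 of the 10 starts were open in KO and 8 and 8 in WT. Over all 21887 protein-coding genes, 13790 and 14260 were open in KO and 14341 and 14272 in WT.

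The sorted population was checked by the same measure. Among the genes named as open, Pecam1, Cdh5, Spi1, Sftpc, Scgb1a1, Foxj1, Cdh1, Thy1, Lox and Tagln were judged by either gene end. A peak counted for them need not lie at the start. All 12 pan-endothelial genes, among them Pecam1, Cdh5 and Tek, had an open start in every library. Leukocyte genes had 1 and 1 of 12 open in KO and 2 and 1 of 12 in WT, with Spi1 open in all lists and Ptprc, the pan-leukocyte gene, in none. Epithelial genes had 7 and 8 of 12 in KO and 8 and 8 of 12 in WT. The epithelial starts of Epcam, Sftpc, Sftpb, Scgb1a1, Foxj1, Hopx and Krt8 were open in all lists, that of Cdh1 in 3, and those of Nkx2-1, Ager, Sftpa1 and Lamp3 in none. Further fibroblast genes had 7 and 9 of 17 in KO and 9 and 9 of 17 in WT. Among these, Dcn, Lum, Ces1d and Dpt had no peak in the gene or within 10 kb in any library, and 6 genes, Thy1 and Lox among them, had an open start in all lists. Further mural genes had 10 and 11 of 15 in KO and 13 and 11 of 15 in WT, with 10 open in all lists, Tagln and Notch3 among them, and Lmod1 and Higd1b in none. The share of these peaks that came from other cells in the sort was not tested.

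**Figure D2:**
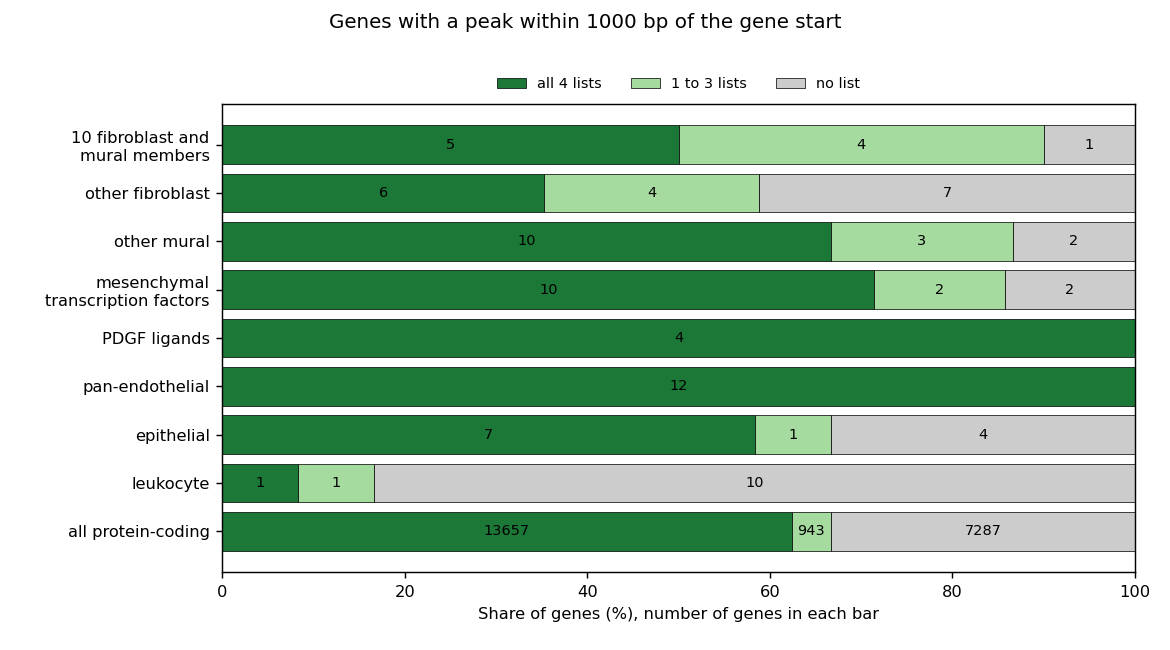
Share of genes, in percent, with a peak within 1000 bp of the gene start in all 4 lists (dark green), in 1 to 3 lists (light green) and in no list (grey), with the number of genes in each bar. For genes without a listed start, a peak near either gene end counted. The 10 fibroblast and mural genes fall between the 12 pan-endothelial genes, all open in every list, and the 12 leukocyte genes, of which 10 had no such peak.

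The amount of open sequence lay within the range of genes at large and differed among the 10. Peaks covered a median of 4.27% of the 10 windows, from 1.93% at Col1a2 to 9.08% at Col1a1, against 3.31% over all protein-coding windows and 9.12% for the pan-endothelial genes. Among all protein-coding windows, Col1a2 stood at the 34.9th percentile and Col1a1 at the 88.6th. In order of the mean, Col1a1 and Cspg4 were followed by Pdgfra, Acta2, Tcf21, Tbx4, Rgs5, Myh11, Pdgfrb and Col1a2. The values of neighbours in this order overlapped between libraries, with 4 exceptions. Col1a1 stood above Cspg4 (lowest 7.91% against highest 7.56%) and Cspg4 above Pdgfra (lowest 6.10% against highest 5.34%). Tbx4 stood above Rgs5 (lowest 4.00% against highest 3.77%) and Rgs5 above Myh11 (lowest 3.18% against highest 2.98%).

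**Figure D3:**
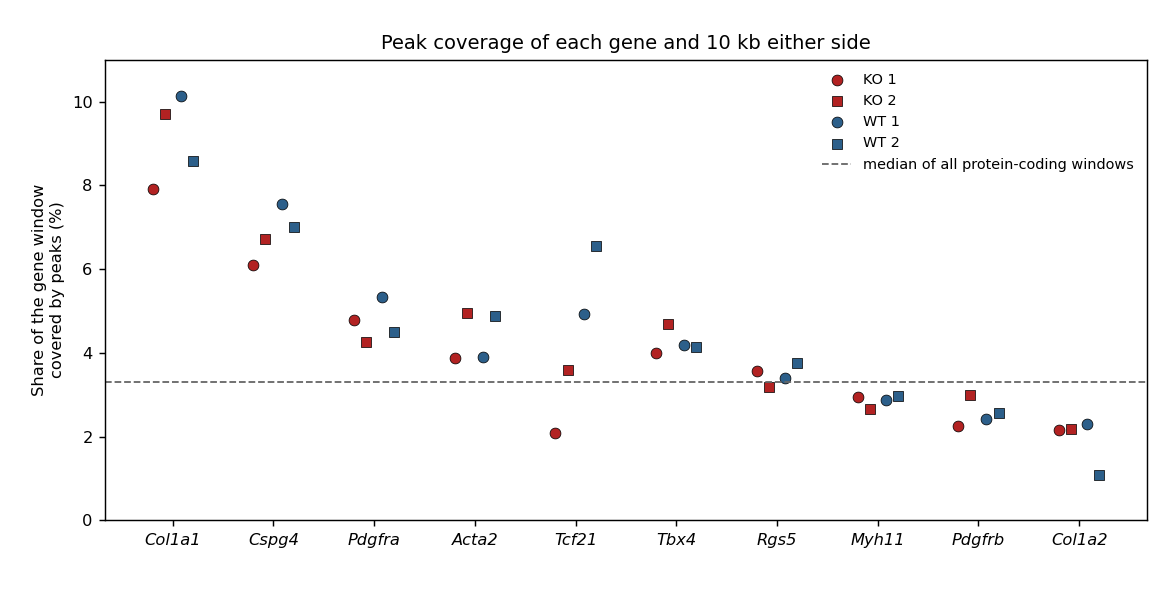
Percent of each gene window covered by peaks, 1 point per library, in red for KO and blue for WT (circles for replicate 1, squares for replicate 2), ordered by the mean, with the median of all protein-coding windows, 3.31%, as a dashed line. KO and WT points separate only at Tcf21 and Cspg4, where both WT values lie above both KO values. Over all gene windows with a peak, 34.6% show this order.

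The genotypes were compared by fitting the covered base pairs of every gene window with a peak, 17673 in all and all 10 of these genes, on a quantile-normalised log2 scale with 100 bp added. By limma with Benjamini-Hochberg adjustment 0 of the 10 genes passed an adjusted p of 0.05, and 0% of all windows did, with 1 of the 10 and 6.55% of all windows at an unadjusted p under 0.05. Tcf21 had the lowest log2 difference, KO minus WT, -0.77 (SE 0.24, 95% interval -1.40 to -0.13, limma adjusted p = 0.694). It was lower in both KO libraries than in either WT library, and without KO replicate 1 the difference was -0.50. Col1a2 had the highest, 0.54 (SE 0.35, 95% interval -0.37 to 1.45, limma adjusted p = 0.815), and the value was 0.03 without WT replicate 2, its low library, and 1.07 without WT replicate 1. The other 8 genes lay between -0.12 at Cspg4 and 0.16 at Pdgfrb. At Rgs5 the difference was 0.00 with a 95% interval from -0.26 to 0.26. At Myh11 it was 0.01, with an interval from -0.20 to 0.21, the narrowest of the 10. The intervals were wider at Col1a1 (-0.37 to 0.35), Acta2 (-0.33 to 0.55) and Pdgfrb (-0.22 to 0.55), and held 0 in each. The median over the 10 genes was 0.00, and 0.02 over all windows.

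Before any scaling, both WT values lay above both KO values at 2 of the 10 genes, Tcf21 and Cspg4, and 34.6% of all windows did so. With peaks narrower than the median of their own list left out, the fitted difference at Cspg4 turned to 0.21, while Tcf21 was still below 0. At Pdgfrb the fitted difference went from 0.16 to 1.74 (limma adjusted p = 0.721). The Pdgfrb peaks left were 580 bp in KO replicate 1, 408 and 410 bp in KO replicate 2, and 439 and 501 bp in WT. These widths differ by less than the 1.74 of the quantile-normalised fit. The WT lists also covered more sequence in all (51.1 and 50.5 Mb, against 46.6 and 47.8 Mb in KO). The opposite order held at 0 of the 10 and at 5.58% of all windows. The 10 windows together held 45 and 55 peaks in KO (50 ± 7.07, SD, n = 2) and 53 and 49 in WT (51 ± 2.83, SD, n = 2), a difference that an exact two-sided permutation test put at p = 1. Per 10000 peaks of the list they held 5.29 and 5.45 in KO and 5.22 and 5.02 in WT, both KO values being the higher (exact permutation p = 0.333). The covered base pairs went the other way, with 21463 and 23068 in KO and 24189 and 23188 in WT, both KO values being the lower (exact permutation p = 0.333). With 2 libraries against 2 the exact permutation test cannot go below p = 0.333. Without KO replicate 1 the difference in means turned from -1 to 4, and without WT replicate 1 to 1.

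**Figure D4:**
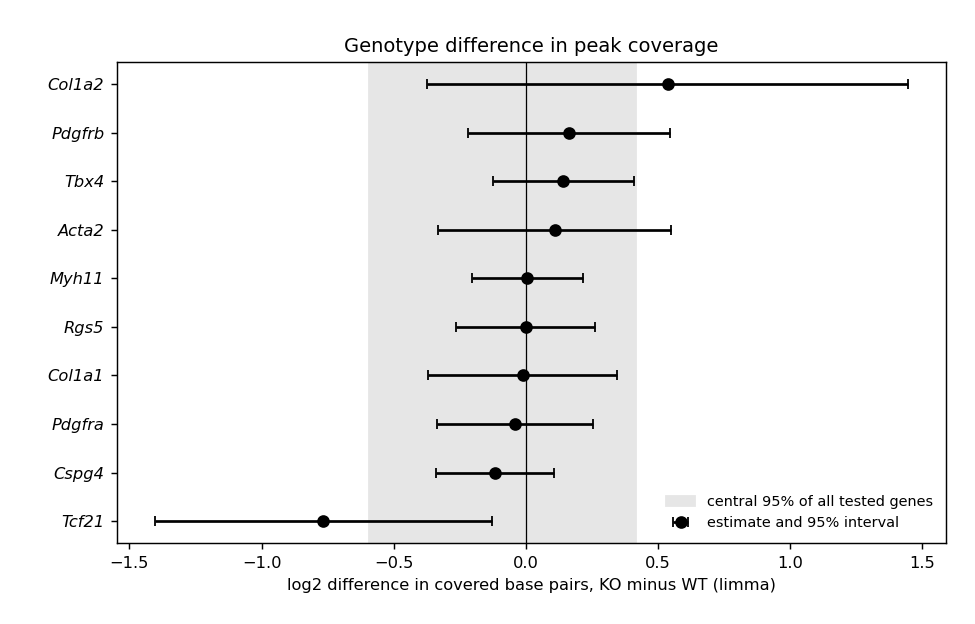
Log2 difference in covered base pairs between KO and WT for each of the 10 genes, from limma, with its 95% interval (bars). The grey band holds the central 95% of the 17673 gene windows tested, from -0.59 to 0.42, and 8 of the 10 estimates lie inside it, with Tcf21 below and Col1a2 above.

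Peak width was compared at the 75395 regions called in all 4 lists, which include 39 of the member regions. By limma with Benjamini-Hochberg adjustment 0 of these 39 differed between genotypes, and 0% of all regions did, with 1 member region and 4.86% of all regions at an unadjusted p under 0.05. That region was the one beyond Cspg4, at a log2 difference of -0.61 (SE 0.16, limma adjusted p = 0.873). By summed width, which adds both peaks of KO replicate 2, it was -0.34. The widest peak there was narrower in both KO libraries than in either WT library, and the share of all regions in that order was not counted. The highest log2 difference was 0.39 (SE 0.36, limma adjusted p = 0.963) at the Myh11 region of 14264399 to 14265884, where KO replicate 1 had its single wide peak. Without that library it was -0.12, and by the summed width of the peaks in the region it was -0.02. In 23 of the 39 the estimate was above 0 and in 16 below, and the median was 0.02, against 0.01 over all regions. The member regions called in fewer lists were narrower, as were such regions at large: the median of their widest peak was 303 bp, against 488 bp for the 39. Over all merged regions the same medians were 280 bp and 565 bp. The widest peak is taken over more libraries where more lists called a region, so part of each gap is built in.

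The wider lists of fibroblast, mural, mesenchymal and PDGF ligand genes were compared in the same way. Whether endothelial cells themselves use these genes was not tested. In the coverage fit 0 of 13 further fibroblast genes with a peak, 0 of 15 mural genes, 0 of 14 mesenchymal transcription factors and 0 of 4 PDGF ligands passed the adjusted limma test in either direction. At an unadjusted p under 0.05, 1 fibroblast gene, 0 mural genes, 3 transcription factors and 0 ligands were lower in KO, against 4.03% of all windows, and 0 genes of the 4 lists were higher, against 2.52%. The transcription factors, named after their values were seen, were Tbx5 at -0.72, Myocd at -0.57 and Zeb1 at -0.28. The fibroblast gene was Fgf10, which had no peak in its window in either KO library and 620 and 470 bp covered in WT, so its fold is set by the added 100 bp and is not given. The median log2 differences of the 4 lists were -0.07, -0.05, -0.12 and 0.00. Pdgfb, the endothelial ligand of the receptor encoded by Pdgfrb, had peaks over 12.8% of its window on average, with a log2 difference of -0.03. Pdgfa, the ligand of the receptor encoded by Pdgfra, had 5.53% and 0.03, and Pdgfc 0.65% and -0.46. At Pdgfd the log2 difference was 0.12. All 4 ligand genes had an open start in every list, with Pdgfb judged by either gene end.

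A few regions at those genes were KO-only or WT-only. Of 95 regions at the further fibroblast genes, 1 was KO-only, inside Col5a1 (277 and 352 bp), and 3 were WT-only. Those 3 lay inside Fgf10, a growth factor gene of lung mesenchyme (620 and 269 bp), inside Npnt (215 and 201 bp) and 5292 bp from Fbln1 (234 and 223 bp). Of 72 regions at the mural genes, 1 was KO-only, inside Cox4i2, and 1 was WT-only, 7384 bp from the same gene. Of 95 regions at the mesenchymal transcription factors, 2 were WT-only, both inside Zeb1, and of 41 at the PDGF ligands 2 were, inside Pdgfa and Pdgfb. At the pan-endothelial genes 2 of 188 regions were KO-only and 3 WT-only, and at the epithelial genes 0 and 2 of 42. These counts stand against the same 1.12% and 3.04% of all merged regions.

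In percent of the window covered over the 4 libraries, each of the 10 genes was matched to the nearest of 86 genes of the other lists, by Euclidean distance. Tbx4 and Rgs5 had the closest matches, to the fibroblast genes Col5a1 (0.519 percentage points) and Col14a1 (0.517). Pdgfrb was nearest to Meox2, Pdgfra to Nkg7, Myh11 to Npnt, Col1a2 to Gli3, Acta2 to Spi1, Cspg4 to Foxs1 and Col1a1 to Ndufa4l2. Tcf21 had the most distant match, Zeb1, at 2.23 percentage points. None of the 10 was nearest to a pan-endothelial gene, but that list made up only 12 of the 86. Its median coverage was 9.12%, against 4.27% for the 10. The match used coverage alone, so it does not speak to lineage.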

How the data were processed

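ATAC-seq peak lists of sorted lung endothelial cells were analysed for 2 KO and 2 WT libraries, grouped by the labels. Bowtie2, cutadapt and Picard, and the mm10 build, are named in the submitters' processing notes. The peak caller, its threshold and the read filters are not given in the sources used here. The lists deposited by the authors hold positions and widths in base pairs, which are not normalised, with no counts, per the file headers. Each list starts at a width of 201 bp, and a deeper library or looser threshold would list more narrow peaks.

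Peaks overlapping by at least 1 bp were merged. Gene spans came from RefSeq GRCm38.p6. Covered base pairs per gene window and log2 width (the widest peak per library) were fitted with limma 3.58.1 (R 4.3.3) after quantile normalisation, with no covariates, and adjusted over all windows or regions. The fits and the merging were tested on simulated data. The members and gene lists were chosen with earlier results of these data known. Named were the 10 members, list genes with a genotype-patterned region (at most 5 per list), the PDGF ligands, neighbours in the windows and the nearest genes by coverage; the epithelial and endothelial genes with such regions were counted only. Marker genes given for their open or unopened starts, and list genes at an unadjusted p under 0.05, were named outside this rule, after their values were seen. Alternatives covered windows, overlap, absence, list length, pseudocount, scaling, start distance, the replicate block and leaving out each library. Python 3.11.15, numpy 2.4.6 and pandas 2.3.3 were used.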

Additional observations from a re-analysis of the deposited data

How the results depend on the processing

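Under the alternatives run, 0 members and 0 member regions passed the adjusted limma tests, including the replicate block (0 of 10 genes and 0 of 39 regions, with 1020 windows and 3843 regions of all at an unadjusted p under 0.05, against 1157 and 3665 without it). The labels give replicate numbers, and deviations of same-numbered libraries correlated at -0.09 over windows and -0.11 over regions. With 2 libraries per genotype, such a value cannot decide whether the numbers pair the libraries. The crossed pairing, added after seeing the data, as was the summed width, called 0 regions. Without KO replicate 1, KO replicate 2, WT replicate 1 and WT replicate 2, the windows of all genes at an unadjusted p under 0.05 numbered 2263, 4237, 339 and 430. Each such fit has an arm of 1 library, whose spread is assumed to equal that of the other genotype's 2 libraries, so these fits say little of stability.

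For single genes the sign turned, and the cause was not tested, with the gene span alone (Pdgfra 0.13, Rgs5 -0.011), with peaks at or over the median width (Myh11 -0.10, Cspg4 0.21) and with lists of equal length (Myh11 -0.021, Rgs5 -0.22). Leaving out 1 library gave -0.16 to 0.076 for Pdgfra, -0.014 to 0.34 for Pdgfrb, -0.16 to 0.13 for Col1a1, -0.053 to 0.27 for Acta2, -0.058 to 0.073 for Myh11 and -0.076 to 0.077 for Rgs5, and for the width of the Myh11 region -0.12 to 0.91, with -0.024 by summed width. Pdgfrb, at 0.16, became 0.0034 with the gene span alone and 1.74 with peaks at or over the median width (limma unadjusted p 0.0339, adjusted p 0.721), and the cause was not tested. The 1.74 is a quantile-normalised value, and the peaks left differed by less (580 bp in KO replicate 1, 408 and 410 bp in KO replicate 2, 439 and 501 bp in WT). Col1a2 ran from 0.03 to 1.07 without 1 library, and it had no value with peaks at or over the median width. With the gene span alone it was 1.44, but WT replicate 2 had no peak there, so that size depends on the added 100 bp. Tcf21 was lower in KO under all 13 alternatives (-1.04 to -0.41), but these reuse the same libraries, so the constant sign is not separate support. With the gene span alone its value, -0.60, rests on 1 peak of 290 bp in WT replicate 2 and on the added 100 bp.

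The count of KO-only member regions, 0, became 1 of 27 with peaks at or over the median width (Pdgfrb; 1.08% of all regions) and 1 of 52 with lists of equal length (Col1a2; 1.96%), and 0 to 2 without 1 library, where 1.89% to 5.83% of all regions were KO-only. That Pdgfrb region had a peak in every full list (580 and 408 bp in KO, 411 and 397 bp in WT). KO replicate 2 passed its own median of 407 bp, while the wider peak of WT replicate 1 fell below its median of 431 bp. The count of WT-only regions, 0, became 1 of 79 with 25 kb either side (Pdgfra; 3.04%), 1 of 27 with peaks at or over the median width (Tcf21; 2.9%) and 0 to 4 without 1 library, where 4.99% to 11.1% of all regions were WT-only. In the full lists that Tcf21 region also had a peak of 336 bp in KO replicate 2. Genes with an open start in all lists, 5, became 4 with a peak required within 250 bp and 7 within 2500 bp. They became 9 when 1 list was enough, 3 with the wider peaks, and 5 to 7 without 1 library. The difference in peak number, -1, turned to 0.248 per 10000 peaks of the list, 0.5 with the wider peaks and 0.5 with equal lengths, and ranged from -6 to 4 without 1 library. The depth of the libraries is unknown, and its part in the regions missing from a list was not tested.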
